A study of Mus musculus with 224 samples.

Results

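The comparison described here asked what voluntary ethanol drinking alone did to gene expression in the medial prefrontal cortex (PFC) of the mouse. It set 11 Air Drinking arrays against 12 Air NonDrinking arrays, which were taken as every PFC array whose title names air vapor, and over which all 45037 probesets were tested. These 23 arrays are part of 47 from the PFC, beside which the series holds 177 from the other 4 brain regions, each with the same 4 treatment groups. Both groups were male C57BL/6J mice bought at 10 weeks of age, and both sat in chambers that delivered plain air for 16 h per day over 4 days in each of 4 cycles. Both also received 1 mmol/kg pyrazole in saline, an inhibitor of alcohol dehydrogenase, before each chamber session, so the nondrinkers had never met ethanol but had met pyrazole. Air Drinking mice had 6 weeks of baseline drinking, in which a 2 h session each day offered 15% (v/v) ethanol beside water, and the same sessions followed a 72 h abstinence in every cycle. Air NonDrinking mice had water only. All mice were killed at the hour at which access would have begun on the last drinking day. The tissue of the drinkers was thus taken while no ethanol was on offer, nearly a day after their last session. The paper raises withdrawal time as a possible influence on the differences between groups.

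The medial prefrontal cortex is the part of the cortex that weighs outcomes and holds back unwanted actions, and it projects to the accumbens and the amygdala. Its projection neurons lie in layers, of which the upper layers connect cortical areas with each other and the deep layers send axons out of the cortex. When such neurons fire, a set of immediate early genes (Fos, Arc, Npas4, Egr1 and others) is transcribed within minutes, and this set is widely read as a record of recent activity. Genes of known cell types were compared in Air NonDrinking arrays of the PFC and of the nucleus accumbens (NAC), 2 regions that the authors normalized separately. The median log2 value of Slc17a7, the vesicular glutamate transporter of cortical neurons, was 8.86 in the PFC and 6.04 in the NAC, and that of Neurod6, a transcription factor of the same neurons, was 10.06 against 6.01. The dopamine receptor Drd2 went the other way, with 6.05 in the PFC and 9.81 in the NAC. Camk2a, also a gene of excitatory neurons, was not higher in the PFC, with 13.095 against 13.254 in the NAC. In the hippocampus, Slc17a7 (9.40) and Neurod6 (11.14) were higher than in the PFC. These genes thus set the PFC apart from the NAC and are not particular to the PFC. Array medians in the PFC lay between 6.07 and 6.14, any pair of PFC arrays correlated between 0.989 and 0.999, and no array was a copy of another. Depth has no meaning for arrays, and the number of mice per group limits the precision.

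At an adjusted p of 0.01 or less in limma, 629 probesets differed, which is 1.4% of those tested (0.959% higher and 0.437% lower in Air Drinking). The size of the called differences ran from 0.11 to 0.94 on the log2 scale with a median of 0.27. Of these probesets, 15 had values that did not overlap between the groups (2.38% of the called, against 0.0355% of all probesets). When each gene was read from its probeset with the highest mean, 240 of 18193 genes were called (1.32%), of which 140 rose (0.77%) and 100 fell (0.55%). The text names the 14 genes with the largest rises, the 14 with the largest falls, and every called member of 34 gene lists, which makes 54 genes, 33 higher and 21 lower. In 42 of the 54, all 11 drinkers deviated from the Air NonDrinking mean in the direction of the change, and in the other 12 genes 10 drinkers did. The genes had been picked for this same difference in these same arrays, so that count follows largely from the choice. The direction of the tally moved with scaling, since rises made up 68.7% of called probesets in the deposited values, 61% after a further quantile normalization and 56.4% with each array centred on its median.

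**Figure D1:**
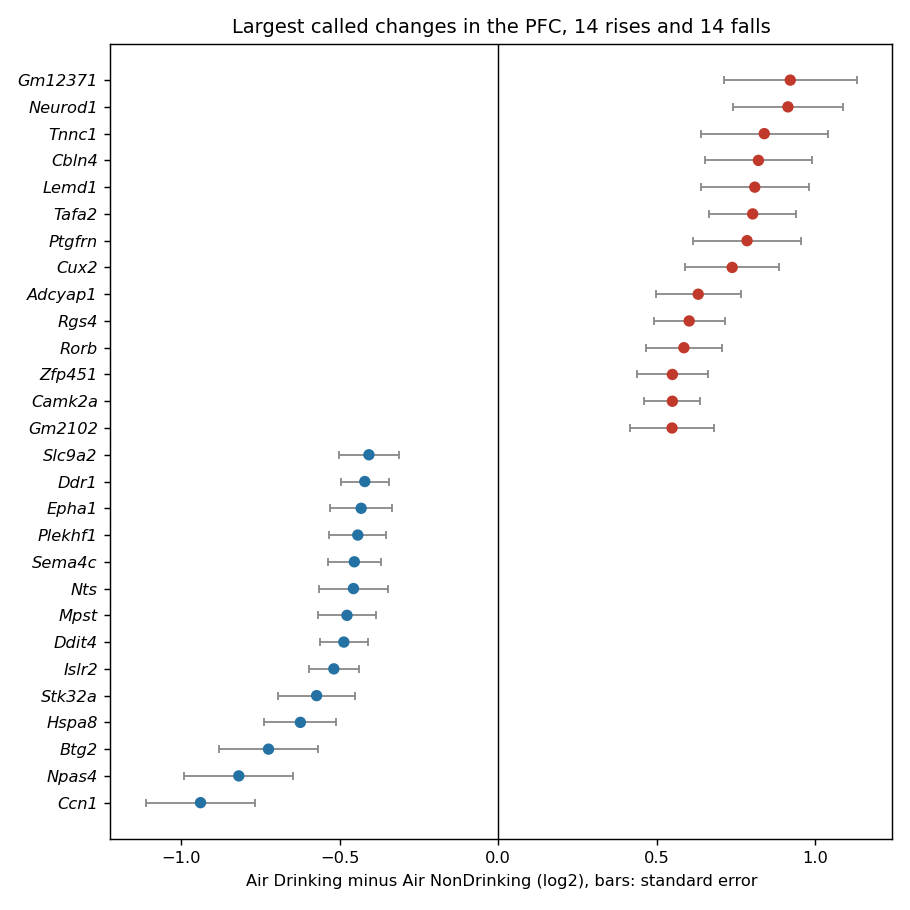
Difference between Air Drinking and Air NonDrinking in the PFC, in log2 units on the horizontal axis, for the 14 named genes with the largest rises (red) and the 14 with the largest falls (blue), with bars of 1 standard error from limma. Rises reached 0.92 for Gm12371 and falls reached -0.94 for Ccn1.

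Genes that mark the upper cortical layers gave some of the clearest rises. Of 12 upper-layer genes, 2 rose by the probeset with the highest mean, none fell, and 10 had positive differences, with a median of 0.21 where the median over all genes was -0.02. Cux2, a homeodomain factor that marks neurons of the upper layers, ranged from 8.16 through a median of 8.71 to 9.39 in Air Drinking and from 7.5 through 8.03 to 8.38 in Air NonDrinking. In 8 of 11 Air Drinking arrays Cux2 lay above every Air NonDrinking array. The difference was 0.74 ± 0.15 (SE, log2, limma adjusted p = 0.00232), or 1.67-fold, although the other probesets of Cux2 gave 0.05 and 0.17 and were not called. Rorb, the nuclear receptor of layer 4 neurons, ran from 8.83 through 9.05 to 9.40 in Air Drinking and from 7.74 through 8.62 to 8.81 in Air NonDrinking. The Rorb groups did not overlap, and the difference was 0.59 ± 0.12 (SE, limma adjusted p = 0.00287). Its remaining probesets were also called, at 0.53 and 0.50. Pou3f2 (Brn2), a POU factor needed for upper-layer neurons, rose on 2 of 3 probesets, by 0.40 and 0.37, while the brightest probeset gave 0.37 with a limma adjusted p of 0.0121. Rasgrf2 (0.42, adjusted p = 0.0116), Lamp5 (0.33, adjusted p = 0.0289) and Calb1 (0.36, adjusted p = 0.0735), further upper-layer genes, were positive without passing the test in limma. The mean level of the 12 genes, taken in each array relative to the 47-array mean, ran from -0.04 through 0.11 to 0.47 in Air Drinking and from -0.25 through -0.08 to 0.10 in Air NonDrinking, and all 11 drinkers lay above the Air NonDrinking median. In bulk tissue a change in the number of cells of a type and a change in RNA per cell cannot be told apart.

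Among 9 genes of forebrain excitatory neurons, 2 rose and none fell, with a median difference of 0.07. Neurod1, a basic helix-loop-helix factor of young and excitatory neurons, ran from 6.52 through 7.0 to 8.09 in Air Drinking and from 5.69 through 6.37 to 6.55 in Air NonDrinking. All but 1 of the Air Drinking arrays lay above the highest Air NonDrinking array. Neurod1 rose by 0.91 ± 0.17 (SE, limma adjusted p = 0.00128), or 1.88-fold, and its brighter probeset gave 0.70 and was called too. Slc17a6, the vesicular glutamate transporter more usual in thalamus than in cortex, had 7.65 as its lowest, 8.14 as its median and 8.76 as its highest value in Air Drinking, against 7.30, 7.61 and 8.0 in Air NonDrinking. The groups overlapped in part, with 8 of 11 drinkers above all nondrinkers, and both Slc17a6 probesets rose, by 0.54 ± 0.12 (SE, limma adjusted p = 0.00437) and by 0.48. Slc17a7, Emx1, Neurod2 and Tbr1, the more general cortical markers, gave 0.07, -0.04, -0.05 and 0.07 and did not pass. Camk2a, the kinase that makes up much of the postsynaptic density, rose by 0.55 ± 0.09 on a single probeset (limma adjusted p = 0.000275), whose values ran from 7.04 to 7.90 in Air Drinking and from 6.48 to 7.36 in Air NonDrinking. Its brightest probeset gave 0.09 and the remaining 4 gave -0.14 to 0.25, none of them called, although all but the dimmest were positive with limma adjusted p from 0.0209 to 0.0479.

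**Figure D2:**
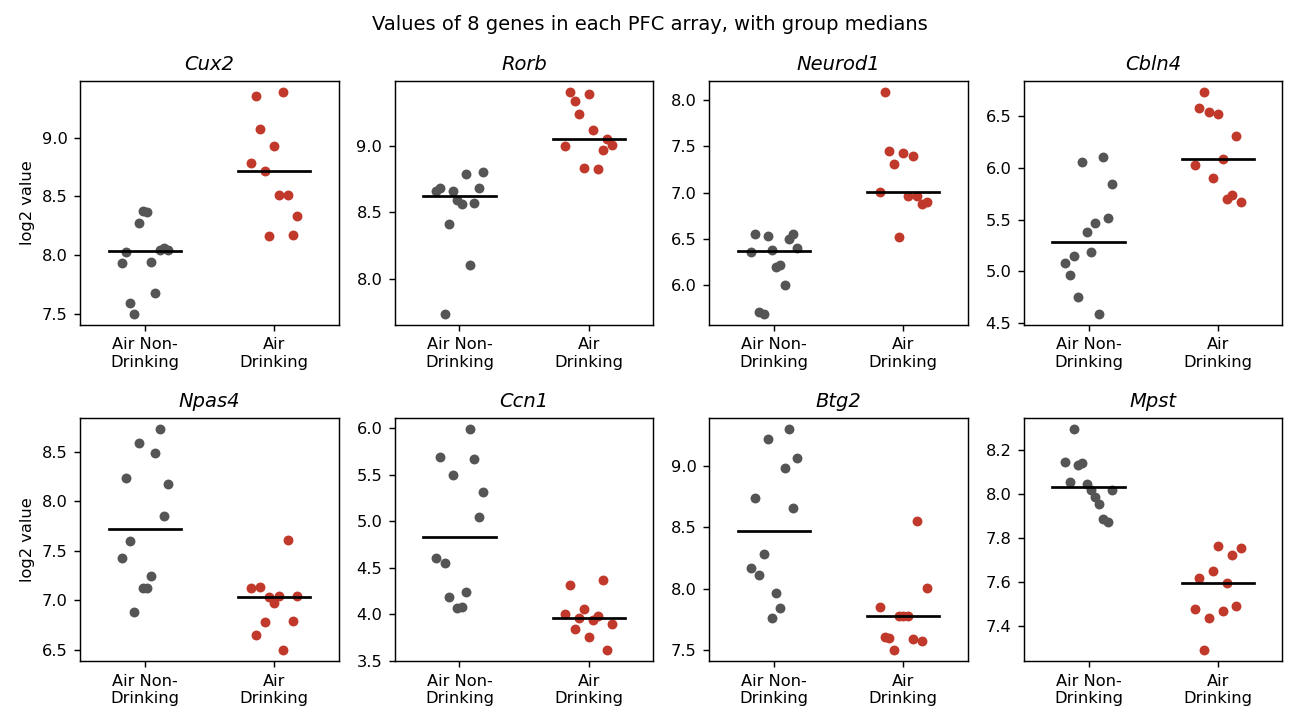
Deposited log2 value of 8 genes (vertical axis) in each of the 12 Air NonDrinking (grey) and 11 Air Drinking (red) PFC arrays, with a line at each group's median. The groups do not overlap for Rorb and Mpst, while for Npas4, Ccn1 and Btg2 the nondrinkers are widely spread and the drinker median is lower.

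Genes of the deep layers gave few calls. Of 15 deep-layer genes, 1 fell and none rose by the probeset with the highest mean, and the median difference was -0.01. Rprm, a p53 target that marks corticothalamic neurons of layer 6, ran from 10.60 through 10.80 to 11.11 in Air Drinking and from 10.95 through 11.20 to 11.50 in Air NonDrinking. In 8 of 11 drinkers Rprm lay below every nondrinker, and it fell by 0.37 on the log2 scale (SE 0.08, limma adjusted p = 0.00517). Foxp2, a forkhead factor of layer 6, fell on 1 of 6 probesets by 0.27, while Fezf2 (0.11), Bcl11b (0.01) and Tle4 (-0.10), which specify or mark corticofugal neurons, did not pass. In the list of layer 6b and claustrum genes, 1 of 9 was called, and this was a rise of 0.38 ± 0.09 in Synpr, a synaptic vesicle protein (limma adjusted p = 0.00834). Another 6 of the 9 were negative, and Cplx3, a complexin of layer 6b neurons, gave -0.45 with an adjusted p of 0.0342 in limma. No difference between the layer lists was tested.

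A pair of cerebellins rose. Cerebellins are secreted proteins that bridge presynaptic neurexins to postsynaptic receptors and thereby organize synapses. Of the 7 measured members of that list, 2 were called higher, beside 0.77% of all genes. The list was chosen with earlier results of these data known. Cbln4 ran from 5.67 through 6.09 to 6.73 in Air Drinking and from 4.59 through 5.28 to 6.10 in Air NonDrinking. The groups overlapped, with 5 of 11 drinkers above every nondrinker and 9 of 12 nondrinkers below every drinker. The difference was 0.82 ± 0.17 (SE, limma adjusted p = 0.00284), or 1.77-fold. Cbln2 ran from 8.87 through 9.04 to 9.47 in the drinkers and from 8.10 through 8.68 to 8.95 in the nondrinkers, with 9 of 11 drinkers above all nondrinkers. It rose by 0.50 ± 0.09 (SE, limma adjusted p = 0.00103). Cbln1 gave 0.04, Cbln3 -0.04, and the partners Nrxn2, Nrxn3 and Grid1 gave 0.03, 0.02 and 0.04, none of which passed. When the fit held only the compared groups, Cbln4 and Cbln2 lost their calls, with limma adjusted p of 0.0108 and 0.011.

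Tafa2, a chemokine-like protein secreted by neurons, ran from 7.37 through 7.90 to 8.06 in Air Drinking and from 6.08 through 7.20 to 7.55 in Air NonDrinking, and 10 of 11 drinkers lay above all nondrinkers. Tafa2 rose by 0.80 ± 0.14 (SE, limma adjusted p = 0.000503). Adcyap1, which encodes the stress-related neuropeptide PACAP, was the only one of 18 stress and opioid peptide genes called. Its values ran from 7.75 through 8.0 to 8.56 in the drinkers and from 6.97 through 7.68 to 8.01 in the nondrinkers. The groups overlapped in the middle of the range, with 5 of 11 drinkers above all nondrinkers, and the rise was 0.63 ± 0.13 (SE, limma adjusted p = 0.00406). Crh (0.42, adjusted p = 0.110), its receptor Crhr1 (0.35, adjusted p = 0.0467) and the opioid precursor Penk (-0.69, adjusted p = 0.112) were not called by limma. Nts, the neuropeptide neurotensin, fell by 0.46 (SE 0.11, limma adjusted p = 0.00844) at low signal, from a median of 4.67 in nondrinkers to 4.00 in drinkers. Rgs4, which shortens signalling through Gi- and Gq-coupled receptors, ran from 7.99 through 8.61 to 8.88 in Air Drinking and from 7.44 through 8.01 to 8.34 in Air NonDrinking. All but 1 of the drinkers exceeded every nondrinker, and Rgs4 rose by 0.60 ± 0.11 (SE, limma adjusted p = 0.00100), with another probeset called at 0.31 and one at 0.18 that was not.

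Calls among glutamate receptor and synapse genes were few and all upward. Among 14 ionotropic glutamate receptor subunits, 1 was called, the modulatory NMDA receptor subunit Grin3a, at 0.43 ± 0.09 on one probeset (limma adjusted p = 0.0032) and 0.27 on a brighter one. Of 16 metabotropic receptor and scaffold genes, 1 was called by the probeset with the highest mean, the presynaptic autoreceptor Grm2 at 0.46 ± 0.11 (SE, limma adjusted p = 0.00773). Homer1, a scaffold that links metabotropic receptors to calcium stores, ran from 9.46 through 9.75 to 9.84 in Air Drinking and from 8.94 through 9.30 to 9.58 in Air NonDrinking on the probeset with the larger called change. There 9 of 11 drinkers lay above all nondrinkers and the rise was 0.39 ± 0.08 (SE, limma adjusted p = 0.00346). A second Homer1 probeset was called at 0.34, and the other 4, from 0.14 to 0.49, were positive but did not pass. On a single probeset each, the scaffold Dlgap1 rose by 0.18, the vesicle protein Syn2 by 0.18, the calcium channel subunit Cacna2d1 by 0.40, the potassium channels Kcnd3 and Kcnq5 by 0.34 and 0.31, and the GABA receptor subunit Gabrg1 by 0.31. By the probeset with the highest mean, none of 10 GABA receptor, 20 vesicle release, 23 potassium channel or 15 calcium channel genes was called.

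Some activity-regulated genes were lower in the drinkers than in Air NonDrinking, while most of the list did not pass the test. Of 34 immediate early genes, 5 fell and none rose by the probeset with the highest mean, 23 were negative, and the median was -0.12. Homer1, which the list also holds, went the other way and rose on 2 of its dimmer probesets, as given above. Npas4, a neuron-specific factor that is switched on by calcium entry and shapes inhibitory synapses, ran from 6.50 through 7.03 to 7.61 in Air Drinking and from 6.89 through 7.73 to 8.73 in Air NonDrinking. Nondrinkers were widely spread, and 6 of 12 lay above the highest drinker. The difference was -0.82 ± 0.17 (SE, limma adjusted p = 0.00365), or 1.76-fold lower. Ccn1 (Cyr61), a secreted matrix protein induced by serum and by neuronal activity, ran from 3.61 through 3.96 to 4.37 in the drinkers and from 4.07 through 4.83 to 5.99 in the nondrinkers on the probeset with the largest change. Of the nondrinkers, 8 of 12 lay above every drinker. The difference there was -0.94 ± 0.17 (SE, limma adjusted p = 0.000877), and all 4 Ccn1 probesets were called, from -0.54 to -0.94. Btg2, an early response gene that restrains proliferation and deadenylates RNA, ran from 7.5 through 7.78 to 8.55 in Air Drinking and from 7.76 through 8.47 to 9.30 in Air NonDrinking. The groups overlapped, with 5 of 11 drinkers below every nondrinker and 6 of 12 nondrinkers above the highest drinker. Btg2 differed by -0.72 ± 0.16 (SE, limma adjusted p = 0.0046). Gadd45g, a stress-induced regulator of cell cycle and DNA demethylation, fell by 0.28 and the small Maf factor Maff by 0.27.

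The best known activity markers gave no called difference. Arc differed by -0.60 ± 0.21 (SE, limma adjusted p = 0.0741), with a nondrinker range of 8.65 to 10.47 and a drinker range of 7.94 to 9.32. Fos differed by -0.45 ± 0.23 (adjusted p = 0.213) and Egr1 by -0.03 ± 0.05 (adjusted p = 0.715) in limma. Gadd45b gave -0.32 (adjusted p = 0.0374) in limma, again with a lower median in the drinkers (8.58 against 8.85). The mean level of the 34 genes in each array ran from -0.29 through -0.03 to 0.13 in Air Drinking and from -0.14 through 0.07 to 0.55 in Air NonDrinking, and the 2 highest nondrinkers stood at 0.54 and 0.55. When the 4 PFC arrays farthest out on the first principal component were left out, a step chosen after the data were seen, Npas4 (-0.88) and Ccn1 (-1.03 on the same probeset) kept their calls while Btg2, Gadd45g and Maff lost them, and by the probeset with the highest mean only Npas4 fell and only Homer1 rose. When the fit held only the compared groups, none of the 5 falls passed, with limma adjusted p of 0.0235 for Npas4, 0.0146 for Ccn1 and 0.0236 for Btg2.

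Many activity-regulated promoters carry the cAMP response element, which binds CREB, so the 250 bases upstream of the start are shown for the 3 genes with the largest falls in this list. Sequences are from RefSeq on GRCm38.p6, written 5′ to 3′ on the strand of the gene, which is the minus strand for all of them. The windows are chr19:4989972-4990221 for Npas4, chr1:134079156-134079405 for Btg2 and chr3:145649986-145650235 for Ccn1. Capitals mark TGACGTCA, the complete element, and its core TGACG, which reads CGTCA on the other strand.
Npas4: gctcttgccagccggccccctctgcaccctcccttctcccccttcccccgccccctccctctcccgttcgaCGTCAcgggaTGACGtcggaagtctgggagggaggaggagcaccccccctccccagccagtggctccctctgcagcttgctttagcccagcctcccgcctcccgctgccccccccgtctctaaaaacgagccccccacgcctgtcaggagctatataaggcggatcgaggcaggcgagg
Btg2: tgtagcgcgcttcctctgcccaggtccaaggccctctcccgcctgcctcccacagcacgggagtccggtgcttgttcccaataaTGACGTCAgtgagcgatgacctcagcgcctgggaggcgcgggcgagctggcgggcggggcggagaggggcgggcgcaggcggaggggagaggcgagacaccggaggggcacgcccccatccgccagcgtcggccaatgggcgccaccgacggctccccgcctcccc
Ccn1: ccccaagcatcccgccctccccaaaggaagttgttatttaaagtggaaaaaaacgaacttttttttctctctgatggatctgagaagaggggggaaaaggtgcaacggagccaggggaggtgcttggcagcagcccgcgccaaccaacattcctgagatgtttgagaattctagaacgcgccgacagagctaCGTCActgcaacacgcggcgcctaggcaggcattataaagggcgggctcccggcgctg
The Npas4 window held the core once on each strand, the Btg2 window held the complete element once, which contains the core on both strands, and the Ccn1 window held the core once. The window of Gadd45g held neither. Searched on both strands, the complete element was present in 508 of 32851 promoter windows of this length (1.55%) and the core in 5836 (17.8%), and no CArG box, the site of serum response factor, was found in the 4 windows against 1.47% of all. These matches describe the letters only.

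Falls outside the activity list included genes with little or no overlap between the groups. Islr2, a leucine-rich repeat protein of growing axons, ran from 8.19 through 8.36 to 8.72 in Air Drinking and from 8.60 through 8.94 to 9.13 in Air NonDrinking. In 11 of 12 nondrinkers Islr2 lay above every drinker, and it differed by -0.52 ± 0.08 (SE, limma adjusted p = 9.55e-05). Ddit4 (REDD1), an inhibitor of the growth kinase complex mTORC1 that glucocorticoids and cell stress induce, ran from 8.53 through 8.83 to 9.14 in the drinkers and from 9.09 through 9.29 to 9.53 in the nondrinkers. The groups overlapped by a single drinker, with 10 of 11 drinkers below every nondrinker, and the difference was -0.49 ± 0.08 (SE, limma adjusted p = 0.000171). It was the only one of 16 glucocorticoid-responsive genes called by the probeset with the highest mean, while Nfkbia, the inhibitor of NF-kappaB, fell by 0.25 on 1 of 5 probesets. Mpst, a mitochondrial and cytosolic enzyme that produces hydrogen sulfide, ran from 7.29 through 7.60 to 7.77 in Air Drinking and from 7.87 through 8.04 to 8.30 in Air NonDrinking. The Mpst groups did not overlap, and it differed by -0.48 ± 0.09 (SE, limma adjusted p = 0.00169).

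Further falls came from genes of unlike function. The semaphorin Sema4c differed by -0.45 ± 0.08, with 10 of 12 nondrinkers above every drinker (limma adjusted p = 0.000978). The ephrin receptor Epha1 differed by -0.43 ± 0.10 (limma adjusted p = 0.00639) and the collagen receptor Ddr1 by -0.42 ± 0.08 (limma adjusted p = 0.000713), with called changes on 1 of 3 and 2 of 8 probesets. Plekhf1, an endosomal phosphoinositide-binding protein, differed by -0.44, the sodium-proton exchanger Slc9a2 by -0.41 and the kinase Stk32a by -0.57. Srebf2, the transcription factor that drives cholesterol synthesis, fell on both probesets, by 0.31 and 0.28, and was the only one of 14 cholesterol synthesis genes called. Ddit3, the stress factor CHOP, fell by 0.32 on its dimmer probeset and gave -0.08 on the brighter one. Hspa8, the constitutive Hsp70 chaperone, fell by 0.62 on its dimmest probeset, while its 3 brighter probesets gave -0.01 to 0.07, and none of 12 heat shock genes was called by the probeset with the highest mean.

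Among 34 chromatin regulators, 2 rose by the probeset with the highest mean and none fell, with a median of 0.01 that turned slightly negative after a further quantile normalization or median centring. No member was called after median centring or when the fit held only the compared groups, and array weights gave 1 rise and 1 fall (Hdac5). Hdac9, a class IIa histone deacetylase, rose by 0.35 ± 0.08 (limma adjusted p = 0.00795) and Kmt2d, a histone H3 lysine methyltransferase, by 0.23 ± 0.05 (limma adjusted p = 0.00637). Hdac2, a class I histone deacetylase, ran from 7.19 through 7.31 to 7.62 in Air Drinking and from 6.71 through 6.95 to 7.14 in Air NonDrinking on one probeset. The groups did not overlap there, and the rise was 0.41 ± 0.05 (SE, limma adjusted p = 5.53e-06), but the brighter Hdac2 probesets gave 0.05 and 0.06 and were not called. Arntl (Bmal1), the positive arm of the circadian clock, rose on both probesets, by 0.19 and 0.29, and was the only one of 18 clock genes called, with Per1 at -0.11, Per2 at 0.19 and Dbp at 0.10.

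The remaining large rises came from genes of unlike function. Tnnc1, the troponin C of slow muscle and heart, ran from 7.14 through 8.15 to 9.18 in Air Drinking and from 6.66 through 7.13 to 7.85 in Air NonDrinking. It overlapped in the middle of the range, with 6 of 11 drinkers above all nondrinkers, and rose by 0.84 ± 0.20 (SE, limma adjusted p = 0.00919). This call was lost in every alternative run but the filter on dim probesets, and array weights brought the difference to 0.50 (limma adjusted p = 0.080). Of 15 muscle-type contractile genes Tnnc1 alone was called, with Tcap (0.56, adjusted p = 0.0165) and Tnnt2 (0.39, adjusted p = 0.0154) next in limma. The predicted gene Gm12371, of no known role, ran from 4.15 through 4.57 to 6.03 in the drinkers and from 3.56 through 3.98 to 4.31 in the nondrinkers, near the floor of the array. It rose by 0.92 ± 0.21 (SE, limma adjusted p = 0.00663). Lemd1, a LEM-domain protein, rose by 0.81 at a similarly low signal, with a drinker median of 4.51 and a nondrinker median of 3.86. Ptgfrn, an immunoglobulin-type membrane protein that regulates prostaglandin F receptor binding, rose by 0.79 ± 0.17 (limma adjusted p = 0.0046), with 10 of 11 drinkers above all nondrinkers. Its other probeset gave 0.11. The nuclear zinc finger protein Zfp451 and the predicted gene Gm2102 each rose by 0.55 on 1 probeset, and their other probesets gave 0.07 to 0.20 and -0.14.

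Markers of cells that a PFC sample can hold beside its projection neurons moved with the groups to different degrees. None of them was called by the probeset with the highest mean. The 11 measured markers of striatal projection neurons were all negative, with a median of -0.69. Examples are Gpr6 at -1.39 ± 0.54 (adjusted p = 0.103), Drd2 at -0.88 ± 0.36 (adjusted p = 0.118) and Ppp1r1b (DARPP-32) at -0.57 ± 0.15 (adjusted p = 0.0171) in limma. Their mean level ran from -0.77 through -0.49 to 1.19 in Air Drinking and from -0.69 through 0.38 to 0.92 in Air NonDrinking, and 10 of 11 drinkers lay below the nondrinker median, the exception being the highest of the 23 arrays. Over the 23 arrays Gpr6 ran from 3.39 to 7.97 and Drd2 from 4.42 to 7.20. Of 23 oligodendrocyte and myelin genes, all were negative, with a median of -0.15, with Mog the lowest at -0.35 (1 of the 23 turned positive after a further quantile normalization), and their mean level ran from -0.45 through -0.12 to 0.19 in drinkers and from -0.29 through 0.04 to 0.38 in nondrinkers. All 10 meningeal genes were negative as well, with a median of -0.30, and here 4 nondrinkers stood apart at 0.59 to 1.08 while the highest drinker was at 0.05. Also without a call were astrocytes (0 of 12, median -0.02), microglia (0 of 12, median -0.05), endothelium and pericytes (0 of 11, median -0.01) and interneurons (0 of 15, median 0.07), with Gfap at -0.51 nearest to one (adjusted p = 0.0625 in limma). Among the astrocyte genes, Fgfr3 and the glutamate transporter Slc1a2 each rose on the dimmest probeset, by 0.29 and 0.55, and not on brighter ones.

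With the striatal marker level of each array as a covariate, 266 probesets were called, 215 of them shared with the 629, and 24 of the 54 named genes kept their call, among them Cux2, Rorb, Neurod1, Tafa2, Cbln2, Npas4, Btg2, Ccn1, Ddit4 and Islr2. Among the calls lost, the difference became smaller for Slc17a6 (0.41), Adcyap1 (0.51), Tnnc1 (0.75), Cbln4 (0.75) and Mpst (-0.37), and not for Gm12371 (0.99, limma adjusted p = 0.0101) or Ptgfrn (0.80, limma adjusted p = 0.0115). No named gene changed direction. Without the 4 arrays farthest out on the first principal component (Air Drinking mouse 28 and Air NonDrinking mice 48, 51 and 53), 129 probesets were called and 14 of the 54 named genes kept their call, with Cux2 at 0.63 (adjusted p = 0.0259 in limma) and Rorb among those lost. Both alternatives were chosen after the data were seen.

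**Figure D3:**
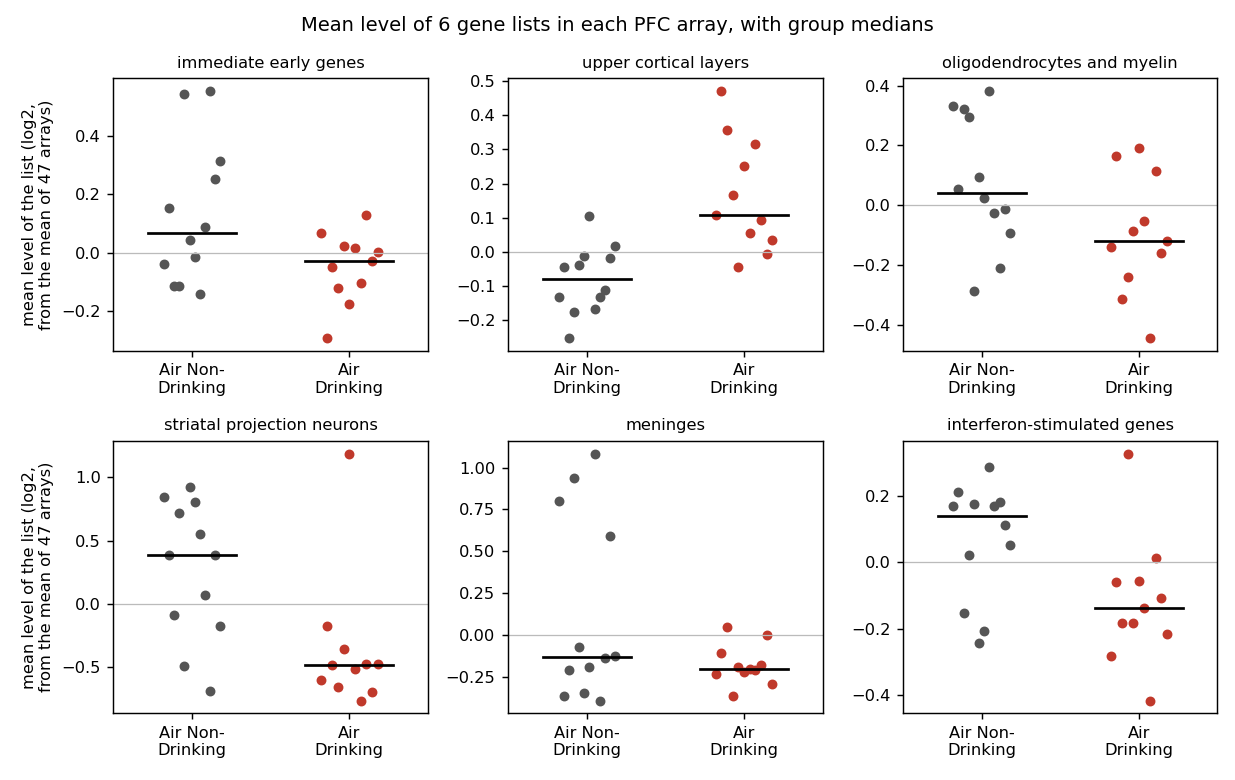
Mean level of 6 gene lists in each Air NonDrinking (grey) and Air Drinking (red) PFC array, as log2 difference from the mean of all 47 PFC arrays (vertical axis), with a line at each group's median. All 11 drinkers lie above the nondrinker median for the upper cortical layers, and 10 of 11 lie below it for striatal projection neurons.

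The other lists held no called gene by the probeset with the highest mean. These were choroid plexus (9 genes, median -0.13), olfactory bulb (8), ethanol metabolism (11, median -0.08), endoplasmic reticulum stress (14, median -0.02), interferon-stimulated genes (14), neurotrophic factors (15, median -0.01), respiratory chain (35, median 0.01) and ribosomal proteins (24, median -0.03). All 14 interferon-stimulated genes were negative, with a median of -0.16, and Bst2 (tetherin) was nearest to a call at -0.34 (adjusted p = 0.038 in limma). Their mean level ran from -0.42 through -0.14 to 0.33 in drinkers and from -0.24 through 0.14 to 0.29 in nondrinkers. Over all 34 lists, 22 of 535 memberships were called, 14 higher and 8 lower, where 1.32% of all genes were called. The lists and their members were chosen with earlier results of these data known. The list count therefore cannot be weighed against the share of all genes, and no excess is read from it.

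The matching contrast in mice that had also been exposed to ethanol vapor, CIE Drinking against CIE NonDrinking, used 24 different arrays. The paper reports that CIE Drinking mice drank more ethanol than Air Drinking mice after most cycles, and that the overall dose differed between groups. A difference between the contrasts therefore cannot be told apart from the larger amount drunk. There 843 probesets were called (1.87%), and 20 of them were also called in drinking alone, which is 3.18% of the one set and 2.37% of the other, with only 3 in the same direction. Of the 629 probesets, 40.7% had the same sign after vapor, where 54.9% of all probesets did. A test of the difference between the contrasts called 1315 probesets (2.92%). It called 32 of the 54 named genes, which is a count that leans upward because the genes had been picked for a large change in one of the contrasts. The values after vapor come from other arrays, and 36 of the 54 had the opposite sign there. These values are not fully free of the choice of genes. The gene lists were chosen with earlier results of these data known, and all PFC arrays were normalized together.

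Rgs4 and Cbln2 were the only named genes called in both contrasts, and both turned round. Rgs4 rose by 0.60 with drinking alone and fell by 0.57 after vapor (limma adjusted p = 0.000904), with medians of 8.01 in Air NonDrinking, 8.61 in Air Drinking, 8.49 in CIE NonDrinking and 7.91 in CIE Drinking. Cbln2 rose by 0.50 and fell by 0.49 (limma adjusted p = 0.000741), with medians of 8.68, 9.04, 8.98 and 8.50 in the same order. Cbln4 gave -0.62 ± 0.16 after vapor (adjusted p = 0.0158) and Adcyap1 gave -0.53 ± 0.13 (adjusted p = 0.0107), neither called by limma. The test of the difference gave -1.18 ± 0.16 for Rgs4, -1.44 ± 0.24 for Cbln4 and -1.16 ± 0.19 for Adcyap1 (limma adjusted p = 6.5e-06, 0.000151 and 0.000144). Ddit4, which fell alone, gave 0.18 ± 0.07 after vapor (adjusted p = 0.127) and a difference of 0.67 ± 0.11 (limma adjusted p = 0.000103). The activity genes Npas4, Btg2 and Ccn1 gave -0.30, -0.12 and -0.10 after vapor, none called, and for none of them was the difference between the contrasts called (limma adjusted p = 0.196, 0.0765 and 0.0212). In the same order of groups, medians were 7.73, 7.03, 7.38 and 6.98 for Npas4 and 8.47, 7.78, 7.73 and 7.53 for Btg2. They were 4.83, 3.96, 4.16 and 4.10 for Ccn1 and 9.29, 8.83, 8.84 and 8.91 for Ddit4. For these genes CIE NonDrinking mice, which never drank, also lay below Air NonDrinking mice, a difference not tested here. For Rorb, too, the difference was not called, at -0.47 ± 0.17 (limma adjusted p = 0.0719).

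**Figure D4:**
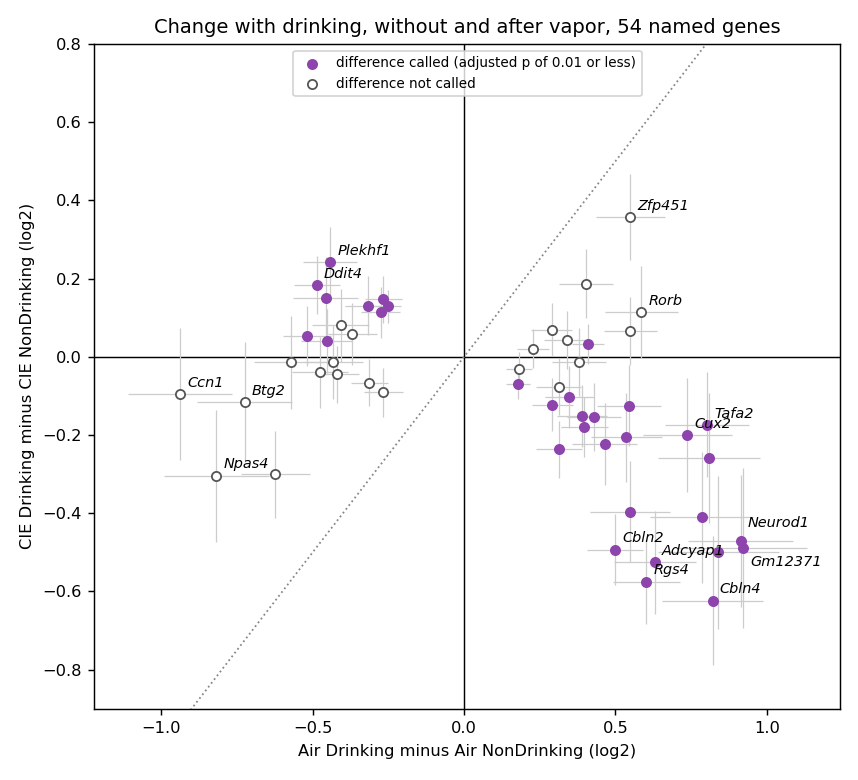
Change with drinking in air-exposed mice (horizontal axis, log2) against change with drinking in vapor-exposed mice (vertical axis, log2) for the 54 named genes in the PFC, with bars of 1 standard error and a dotted line where both are equal. Filled points are the 32 genes for which limma called the difference, and 36 points lie in the quadrants of opposite sign.

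Drinking alone was also compared between the PFC and the 4 other regions, each of which the authors had normalized separately. The NAC had 12 Air Drinking and 12 Air NonDrinking arrays, the hippocampus (HPC) 11 and 8, the stria terminalis bed nucleus (BNST) 12 and 10, and the amygdala's central nucleus (CeA) 12 and 8. No probeset was called by limma within any of these regions (0%). At an unadjusted p under 0.05 there were 2519 to 4595, against 11123 in the PFC, where a share of 0.05 is expected without any difference. The probesets called in the PFC had a median absolute difference of 0.06 (NAC), 0.05 (HPC), 0.06 (BNST) and 0.07 (CeA). They had been picked for their PFC difference, so smaller values elsewhere follow in part from that choice. Of the 629, 66.9% had the same sign in the NAC (56.4% of all probesets), 63.4% in the BNST (53.5%), 52.6% in the CeA (52.1%) and 50.6% in the HPC (49.2%). The test of the difference itself called few probesets, 10 for the NAC (0.0228%), 36 for the HPC (0.082%), 18 for the BNST (0.041%) and 29 for the CeA (0.0661%).

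Of the 54 named genes, 9 differed from at least 1 region in that test, a count that leans upward because the genes had been picked for a large PFC change. Ccn1 and Tnnc1 differed from all 4. Where the PFC gave -0.94, Ccn1 gave -0.10 ± 0.06 (NAC), 0.10 ± 0.08 (HPC), -0.06 ± 0.05 (BNST) and 0.06 ± 0.08 (CeA) (limma adjusted p of the differences from 3.04e-06 to 0.000559). Tnnc1 gave values between -0.09 and 0.02 outside the PFC, with differences of 0.82 to 0.93. Cux2 differed from the NAC, HPC and BNST, where its changes were 0.02, -0.00 and -0.06, and Ptgfrn from the NAC and HPC. Tafa2 and Ddit3 differed from the CeA, Btg2 and Epha1 from the HPC, and Stk32a from the BNST. For Npas4, Rorb and Neurod1 no such difference was called, and Rorb gave 0.36 ± 0.11 in the NAC.

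**Figure D5:**
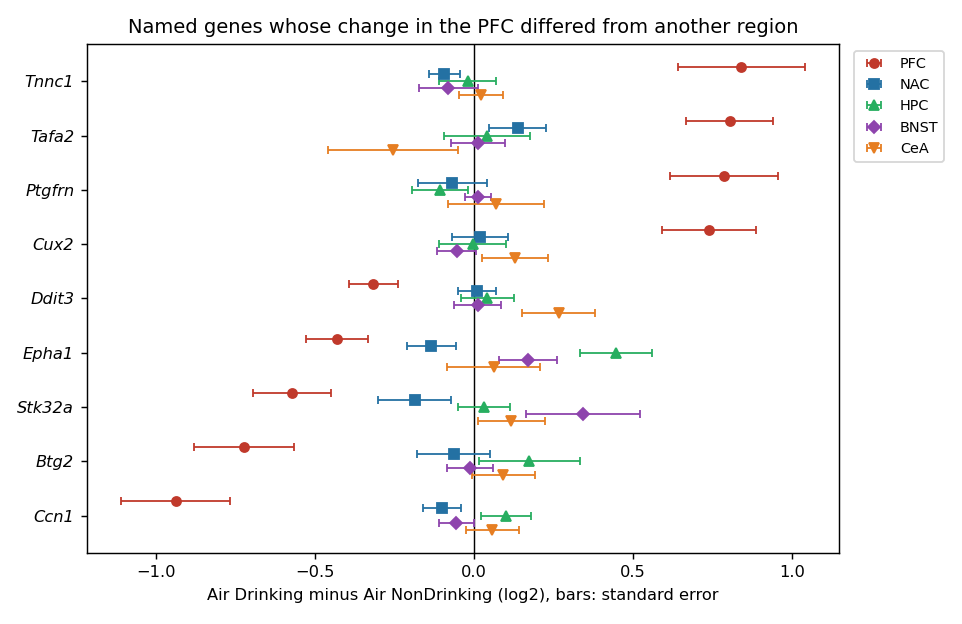
Difference between Air Drinking and Air NonDrinking (horizontal axis, log2, bars of 1 standard error) in the PFC (red) and 4 other regions (NAC, HPC, BNST and CeA, other colours) for the 9 named genes whose PFC change differed from at least 1 other region. Outside the PFC the point farthest from 0 is Epha1 in the HPC at 0.45, while PFC values run from -0.94 for Ccn1 to 0.84 for Tnnc1.

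Air Drinking mice came in runs of numbers, 24 to 32 (5 arrays) and 57 to 62 (6 arrays), and none of the labels tie mice of the groups together. No probeset was called between these runs, with 1071 at an unadjusted p under 0.05. The hybridization batch that the authors corrected for is not in the labels used here, so no value within a batch can be given, and the p-values measure the spread between mice after that correction.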

How the data were processed

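Gene expression was measured on Affymetrix Mouse Genome 430 type 2 arrays, 1 per mouse and region. The authors deposited log2 values, made by RMA background correction and quantile normalization within each region and corrected with ComBat for hybridization batch, after leaving out arrays of low quality. Groups came from the sample titles. Members and gene lists were chosen with earlier results of these data known. Differences were fitted in limma 3.58.1 (R 4.3.3) with 1 mean for each of the 4 PFC groups over 47 arrays, moderated by eBayes, two-sided, with Benjamini-Hochberg adjustment over all 45037 probesets and a threshold of 0.01. The difference from another region was fitted over the arrays of all 5 regions and 43893 probesets, and statmod 1.5.0 served the random block of mouse number. GEO's platform annotation gave 34945 probesets 1 symbol, 932 several and 9160 none. Named genes were the 14 largest called rises and 14 largest called falls among probesets with 1 symbol (1 probeset per gene), every list member with a called probeset, and up to 3 members with the smallest adjusted p in a described list; further members, such as general markers, were named after their values were seen. In lists, a gene was read from its probeset with the highest mean over the PFC arrays, and 535 of 587 members were measured. Promoters were read from RefSeq. The fit was tested on simulated data. Alternatives were a filter on probesets with a mean under 6, a fit to only the compared groups, trend and robust variances, array weights, a further quantile normalization, median centring, single runs of mouse numbers, marker covariates and arrays left out.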

Additional observations from a re-analysis of the deposited data

Results flagged for a closer look

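The change with drinking differed between air-exposed and vapor-exposed mice in a limma test of that difference for 32 of the 54 named genes, given here as the change after vapor minus the change alone on the log2 scale. The named genes had been picked for a large change alone, which pulls these values toward the opposite sign, and the cause was not tested. Among genes that rose alone, the difference was -1.44 for Cbln4, -1.41 for Gm12371, -1.39 for Neurod1, -1.34 for Tnnc1, -1.20 for Ptgfrn, -1.18 for Rgs4, -1.16 for Adcyap1, -1.07 for Lemd1, -0.99 for Cbln2, -0.98 for Tafa2, -0.94 for Cux2 and -0.94 for Gm2102. Synaptic genes gave -0.74 for Slc17a6, -0.69 for Grm2, -0.58 for Grin3a, -0.55 for Gabrg1, -0.54 for Homer1 and -0.25 for Syn2. The astrocyte gene Slc1a2 gave -0.67 on its dimmest probeset. Regulators of transcription and signalling gave -0.58 for Pou3f2, -0.45 for Hdac9, -0.41 for Fgfr3 and -0.38 for Hdac2. Among genes that fell alone, it was 0.69 for Plekhf1, 0.67 for Ddit4, 0.61 for Nts, 0.57 for Islr2, 0.49 for Sema4c, 0.45 for Ddit3, 0.41 for Foxp2, 0.39 for Gadd45g and 0.38 for Nfkbia.

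The change with drinking alone differed between the PFC and another region for 9 named genes, given as PFC minus the other region. These genes too had been picked for a large PFC change, which pulls the values away from 0. Ccn1 differed by -0.84 from the NAC, -1.04 from the HPC, -0.88 from the BNST and -1.0 from the CeA. Tnnc1 differed by 0.93, 0.86, 0.92 and 0.82 in the same order. Cux2 differed by 0.72 from the NAC, 0.74 from the HPC and 0.79 from the BNST. Ptgfrn differed by 0.85 from the NAC and 0.89 from the HPC. From the CeA, Tafa2 differed by 1.06 and Ddit3 by -0.58. From the HPC, Btg2 differed by -0.90 and Epha1 by -0.88, and Stk32a differed by -0.91 from the BNST.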

How the results depend on the processing

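The 629 probesets called for drinking alone became 177 when the fit held only the 2 groups compared, 1100 with array quality weights, 2627 at an adjusted p of 0.05, 115 with only Air Drinking mice 24 to 32 and 4 with only mice 57 to 62. They became 266 with the striatal marker level as covariate, 261 with the oligodendrocyte level added and 129 without the 4 arrays farthest out on component 1. Leaving out 1 array gave 289 to 1174, and the count moved by over 1.5 times without Air Drinking mouse 24 (350), 28 (1037), 31 (289), 32 (413), 59 (328), 60 (1174), 61 (379) or 62 (404), or without Air NonDrinking mouse 48 (373), 51 (358) or 53 (345). The other settings gave 543 to 765. No named gene changed direction in any setting, and of the 54, 51 kept their call with trend and robust variances, 44 after quantile normalization again, 41 after median centring, 40 with weights, 24 with only the 2 groups, 9 with mice 24 to 32 and 1, Hdac2, with mice 57 to 62. The cause of these moves was not tested, and the smaller fits also hold fewer arrays. The 1315 probesets called for the difference after vapor became 2607 with array weights. With dim probesets left out, PFC minus CeA gave 46 in place of 29. Mouse numbers pair arrays of 1 mouse across regions only. With mouse number as a replicate block (consensus correlation 0.0146), the differences from the NAC, HPC, BNST and CeA called 10, 44, 19 and 40 probesets in place of 10, 36, 18 and 29. With the mean over all probesets of a gene, 31 list memberships were called in place of 22.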

Other observations

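Genes called in both contrasts but in opposite directions also included signalling enzymes and adhesion molecules that were not described above and were chosen after their values were seen. Prkca, a protein kinase C, rose by 0.22 with drinking alone (limma adjusted p = 0.00401) and fell by 0.31 after vapor (limma adjusted p = 6.38e-05). Pcdh10, a protocadherin of the synapse, rose by 0.30 and fell by 0.22. Gnb1, the common G protein beta subunit, rose by 0.15 and fell by 0.14, Asap2, a GTPase activator for Arf proteins, rose by 0.33 and fell by 0.17, and the selenium enzyme Sephs2 rose by 0.27 and fell by 0.28. Only Ss18, a chromatin remodeller subunit (0.36 and 0.45), the netrin receptor Neo1 (0.26 and 0.28) and the nuclear import receptor Tnpo2 (-0.20 and -0.21) were called with the same sign in both.

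Probesets without a single gene symbol gave some of the larger values. The 4 largest rises among them were 0.69, 0.68, 0.67 and 0.66. A further such probeset fell by 0.55 with drinking alone and rose by 0.76 after vapor. Irf2bp2, a corepressor, was called in both directions with drinking alone, at -0.20 on one probeset (limma adjusted p = 0.00964) and 0.32 on another (limma adjusted p = 0.000554).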
